A study of Homo sapiens with 6 samples.

Results

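Molecular chaperones are the proteins that fold other proteins and keep them from clumping, and their genes were read here as a group in human definitive endoderm. The group holds the HSP70, HSP110, HSP90, HSP60 and HSP10 and small heat shock protein genes, the J-domain co-chaperones of the DNAJA, DNAJB and DNAJC classes, and the 8 subunits of the chaperonin CCT. Members were taken by gene symbol from the table of 58830 genes. The pattern of symbols matched 91 rows, 11 HSP90 rows whose symbols end in P were left out as pseudogenes, and 80 members remained. Of these, 67 reached 1 TPM (a transcript level scaled for gene length and library total) in at least 3 of the 6 libraries and were tested.

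The cells were made from HuES8, an established human embryonic stem cell line, and the study asked how the antisense RNA GATA6-AS1, transcribed beside the endoderm regulator GATA6, bears on endoderm formation. The 3 libraries called DE here are wild-type HuES8 endoderm, and the 3 called KD are HuES8 endoderm in which GATA6-AS1 was knocked down. Both groups had 1 day of 100 ng/mL Activin A with 2.5 µM CHIR, which turns on Wnt signalling by blocking GSK3, and then 2 days of Activin A alone, in DMEM-F12 with 0.2% BSA and 1% Penicillin-Streptomycin. Not given in the sources used here were the means of the knockdown and any control construct in DE cells. The labels number the replicates 1 to 3 without saying that they are separate cultures, so p-values measure a spread that may be technical.

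HSP70 proteins bind short hydrophobic stretches of unfolded chains in cycles driven by ATP. J-domain proteins bring the clients and start the ATP step, and the HSP110 proteins exchange the nucleotide. HSP90 acts later, on nearly folded kinases and receptors, while HSP60 with its lid HSP10 in mitochondria, and CCT in the cytosol, enclose a chain in a chamber. Heat shock factor 1 drives many cytosolic and mitochondrial members through heat shock elements, repeats of the letters GAA in alternating orientation, whereas the members of the endoplasmic reticulum (ER) answer to the unfolded protein response.

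The targeted RNA was lower in all KD libraries. GATA6-AS1 measured 388, 421 and 313 TPM (DE) against 179.7, 163 and 126 TPM (KD), and its log2 change was -1.26 (SE 0.164, limma adjusted p = 0.0128, exact permutation test p = 0.1, the smallest that 3 against 3 allows). Estimated reads lay between 18640821 and 24510594 a library, and 1 TPM of a 2 kb gene stood for 11.28 to 16.16 reads. Transcripts of mitochondrial DNA took 24.6% to 28.8% of TPM in replicates 1 and 2 but 38.04% in DE replicate 3 and 36.2% in KD replicate 3. Among endoderm markers 5 of 8 fell, and their summed level was 24929 to 28539 TPM in DE and 18077 to 19849 TPM in KD. Among pluripotency markers 4 of 5 rose, with sums of 1719 to 2250 TPM in DE and 2530 to 2960 TPM in KD. The mesoderm sums were 84.7 to 105 TPM in DE and 125 to 131 TPM in KD (1 of 5 rose, 1 fell, and MESP1 and MEOX1 stayed under 1 TPM), and those of fibroblast markers 48.1 to 57.4 TPM and 75.1 to 80.7 TPM (1 of 6 rose, LUM and DCN under 1 TPM). Neuroectoderm markers summed to 117 to 161 TPM in DE and 164 to 186 TPM in KD with 0 of 5 called by limma, and SOX1 was under 1 TPM. These marker sums moved with the groups in which the chaperone genes are compared, and their part in the results was not tested.

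Among the 67 tested members, 1 rose (HSPA8) and 1 fell (DNAJC15) at an adjusted p under 0.05, while 65 did not pass. Over all 17711 genes tested, 1.77% rose and 1.5% fell. Without adjustment, p was under 0.05 for 6 members with a higher and 4 with a lower level in KD. The share of all genes at this unadjusted threshold is not given, so these counts, here and below, have no reference. The 3 KD values lay above the 3 DE values for 10 members and below them for 5, against 10.1% and 10.7% of all genes tested. The median log2 change was 0.04 over the members and -0.01 over all genes tested, and 40 of 67 members had a positive change against 49.0% of all genes. The median of the members was -0.06 without DE replicate 3 and was 0.12 without DE replicate 2, so its sign depended on the libraries used. The median of all genes tested moved the same way, to -0.10 and 0.06, and lay below that of the members in both fits.

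With the replicate number as a block in the fit, which compares each KD library with the DE library of the same number, 10 members rose and 3 fell. The block called 5.88% of all genes higher and 6.62% lower. The 10 were HSPA8, HSPA9, HSPD1, HSPE1, HSPH1, HSP90AA1, HSP90AB1, CCT5, DNAJA2 and DNAJB6, and the 3 were DNAJC15, DNAJB5 and HSPB8. TPM recomputed without the transcripts of mitochondrial DNA, whose share set the third replicates apart, called 8 members higher and 2 lower without a block (4.57% and 4.23% of all genes). The 8 were HSPA8, HSPA9, HSPD1, HSPH1, HSP90AA1, CCT5, DNAJA2 and DNAJB6, and the 2 were DNAJC15 and DNAJB2.

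By the compartment of the product, 39 of 51 members of the cytosol and nucleus were tested, of which 1 rose without the block, and 7 rose and 2 fell with it (median log2 change 0.08). Over all genes tested, 1.77% rose without the block, and 5.88% rose and 6.62% fell with it. The ER held 13 tested members, the mitochondrion 8, and 7 of 8 more had no compartment assigned. Among those 7 none passed in either fit (adjusted p in limma's fit without the block 0.515 to 0.979; median -0.03).

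**Figure D1:**
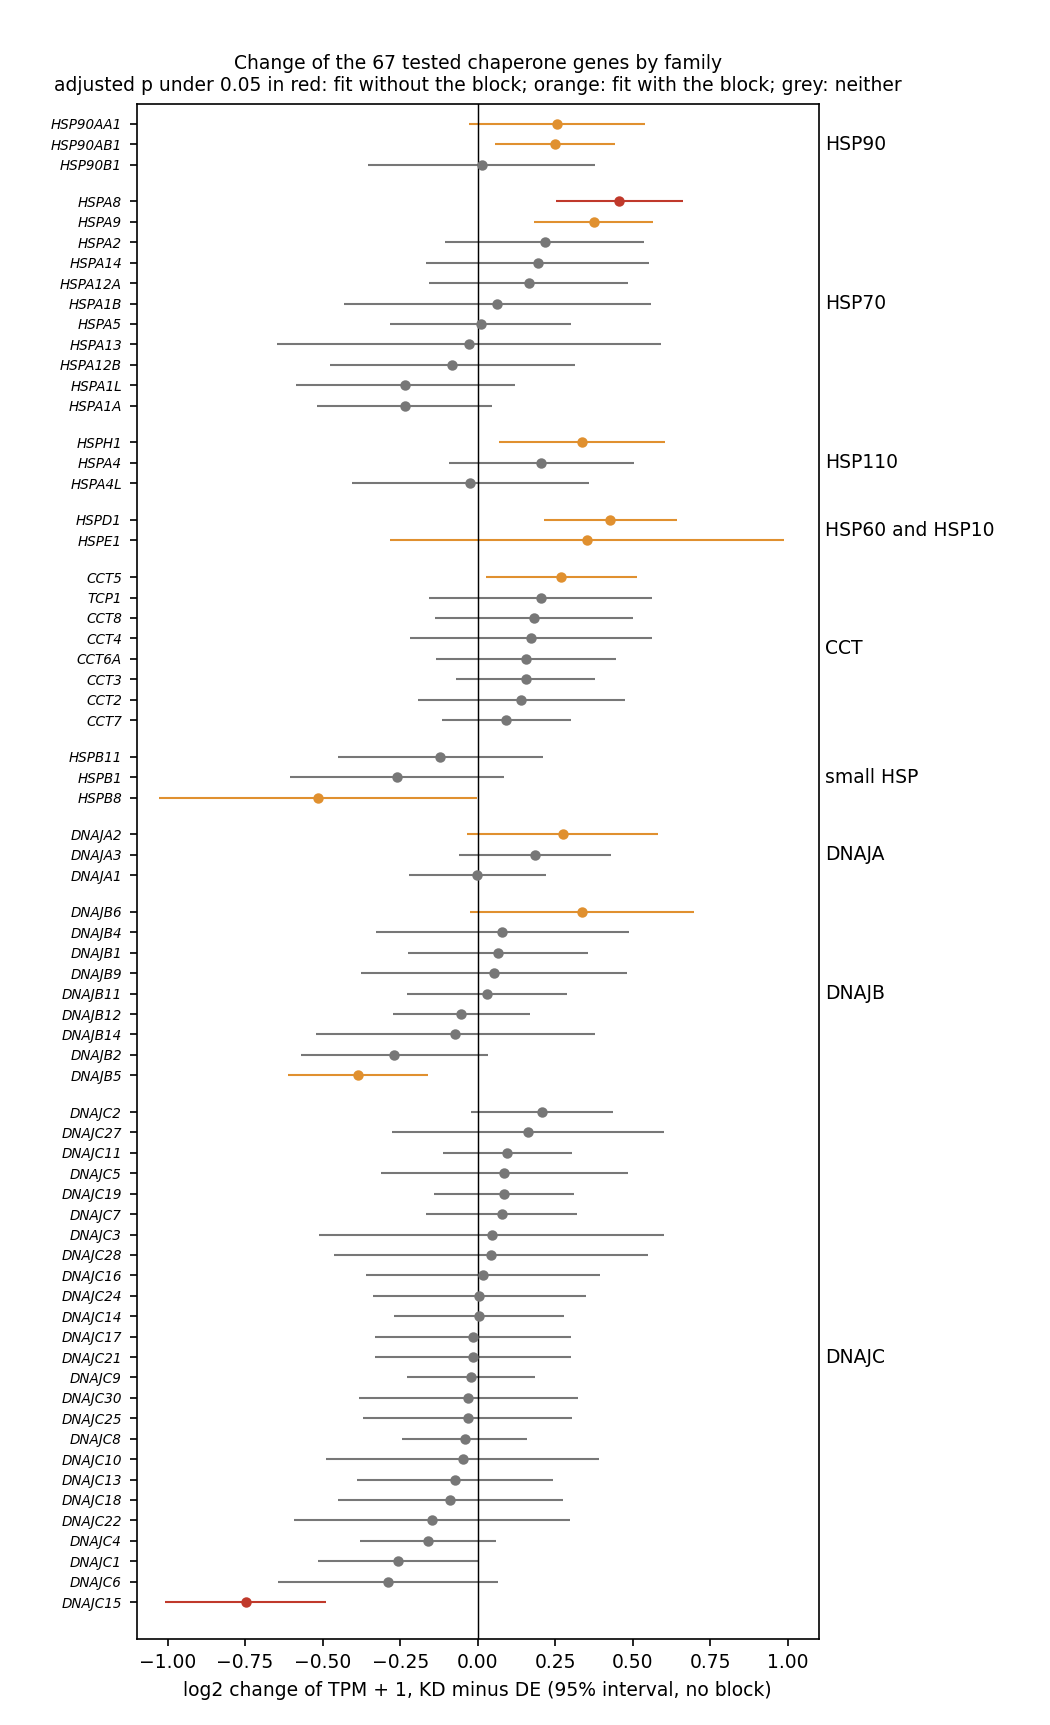
Log2 change of TPM + 1, KD minus DE, for the 67 tested members by family, as point and 95% interval from the fit without a block. HSPA8 at 0.46 and DNAJC15 at -0.75, in red, passed the adjusted threshold in that fit; the 11 members in orange missed it there and passed in the fit with the replicate block.

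Promoter sequence was set beside these values because heat shock elements mark the classical targets of heat shock factor 1. Of the 80 members, 70 had a promoter in the RefSeq table (GRCh38.p14; 250 bases before to 50 bases after each start). The two-unit elements GAANNTTC and TTCNNGAA, searched on both strands, were found in 19 and 14 of the 70, and in 8.21% and 9.46% of 27305 genes. The three-unit element, in which GAANNTTC runs into TTCNNGAA and shares its TTC, was in 7 members and in 0.608% of genes. The 7 genes were DNAJA1, DNAJB6, HSP90AA1, HSP90AB1, HSPA6, HSPA8 and HSPD1. Of the 6 that were tested (HSPA6 was not), 1 rose without and 5 rose with the block, DNAJA1 being the exception. Of the 54 tested members without it, 5 rose and 3 fell with the block, where 5.88% and 6.62% of all genes did. Of 15 tested members with GAANNTTC, 5 rose and 1 fell (HSPB8) with the block. Their median log2 change was 0.07, against 0.04 for members without GAANNTTC. Of 11 tested members with TTCNNGAA, 6 rose and 1 fell (DNAJC15), with a median of 0.25 against 0.03. The motifs were chosen after the values were seen. The search took exact letters only, so elements with a changed letter were not counted. A match is a description of these letters and not a measured binding site.

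The three-unit elements of the 5 carriers that rose with the block are printed 5′ to 3′ on the gene's strand, with the matching letters in capitals. DNAJB1 and the stress genes HSPA1A and HSPA1B, which did not pass, carried the two-unit GAANNTTC without an exact match to the three-unit form. In HSPA1A the letters gac stand where that form needs GAA. HSPA1A and DNAJB1 are shown for comparison. Windows that overlap annotated exons were kept short.
HSPA8 (chr11:123062171-123062199, minus strand, in a 5′ exon of some transcripts): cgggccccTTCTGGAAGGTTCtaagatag
HSP90AA1 (chr14:102087112-102087140, minus strand, in a 5′ exon of some transcripts): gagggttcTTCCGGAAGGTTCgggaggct
HSP90AB1 (chr6:44247823-44247851, plus strand, outside annotated exons): tgagattgTTCTGGAAGCTTCtggattct
DNAJB6 (chr7:157336843-157336915, plus strand, outside annotated exons): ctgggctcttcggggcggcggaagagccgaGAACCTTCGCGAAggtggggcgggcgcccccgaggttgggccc
HSPD1 (chr2:197500062-197500090, minus strand, in 5′ exons of HSPD1 and HSPE1 transcripts): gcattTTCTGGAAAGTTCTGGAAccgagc
HSPA1A (chr6:31815426-31815455, plus strand, outside annotated exons): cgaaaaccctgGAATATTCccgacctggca
DNAJB1 (chr19:14518426-14518455, minus strand, outside annotated exons): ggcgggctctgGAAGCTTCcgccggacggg

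The capitals of HSPD1 hold a pair of overlapping three-unit matches, 1 on each strand. They lie between both RefSeq starts of HSPD1, at 197500274 and 197499840, and were found in the window of the second. HSPE1 starts at 197500379 on the other strand, and its own window did not reach them. HSPA8 and HSP90AB1 each had a second three-unit match in the window. HSPA1A and HSPA1B both had GAATATTC. DNAJC15, which fell, held TTCNNGAA as ttcaagaa once and no three-unit match.

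Another element was searched in the same promoters. The ER stress element, CCAAT and CCACG with any 9 bases between them, is the pattern through which ATF6 and NF-Y act in the unfolded protein response. Searched on both strands, it was found in the promoters of 2 of the members, HSPA5 and HSP90B1 of the ER, and in 0.0916% of genes. Both had log2 changes near 0.01 with overlapping groups. It is given in capitals for contrast with the heat shock elements, and HSP90B1 is read on the gene's strand, where the reverse complement of the element stands. A second match of HSP90B1, farther from the start and in the forward orientation, is not printed.
HSPA5 (chr9:125241361-125241439, minus strand, outside annotated exons): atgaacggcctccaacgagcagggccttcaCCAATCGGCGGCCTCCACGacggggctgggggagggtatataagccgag
HSP90B1 (chr12:103930316-103930344, plus strand, in a 5′ exon of some transcripts): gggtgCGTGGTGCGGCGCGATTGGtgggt

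HSPA8, which encodes the constitutive cytosolic HSP70 (HSC70) that folds new chains and strips clathrin from vesicles and whose promoter holds the three-unit element, was the member that rose. It measured 398, 406 and 353 TPM in the DE libraries against 529, 519 and 538 TPM in KD. All 3 KD values were above all 3 DE values, and the KD libraries lay closer together than the DE libraries. The means were 386 ± 28.3 TPM (DE) and 529 ± 9.76 TPM (KD; SD, n = 3 each). The log2 change was 0.46 (SE 0.0871, 95% interval 0.25 to 0.66, limma adjusted p = 0.0404, 0.00918 with the block). The gene lies on chromosome 11, 123057489 to 123063230 on GRCh38, and 8.23% of its distinct 50-base stretches also occur in other annotated genes, among them HSPA8P1. The call was lost without DE replicate 1 (adjusted p = 0.162), DE replicate 2 (0.0821), KD replicate 1 (0.147), KD replicate 2 (0.186) or KD replicate 3 (0.12), and held without DE replicate 3 (0.0456), while the log2 change stayed between 0.39 and 0.49 in these fits. It was also lost with no filter on low values (0.112) and without limma's trend (0.0809), where the change is the same 0.46. In these bulk libraries, a change in the mix of cells and a change of RNA per cell cannot be told apart.

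The stress-inducible HSP70 genes passed in neither fit, and their difference from HSPA8 was not tested. HSPA1A and HSPA1B, a pair of near-identical neighbours on chromosome 6 that cells switch on under heat or proteotoxic stress, were both present in each library. HSPA1A measured 105, 109 and 87.6 TPM in the DE libraries against 79.1, 94.5 and 81.6 TPM in KD, with overlap between the groups (log2 change -0.24, 95% interval -0.52 to 0.05, exact permutation p = 0.2). HSPA1B measured 61.2, 67.9 and 42.9 TPM in the DE libraries against 67.3, 65.5 and 46.04 TPM in KD (log2 change 0.06, 95% interval -0.43 to 0.56, exact permutation p = 0.7), also with overlap. Since 71.3% of the distinct 50-base stretches of HSPA1A occur in HSPA1B, the split of reads between them is uncertain. Within a library, the TPM ratio of HSPA8 to HSPA1A was 3.73 to 4.03 in DE and 5.49 to 6.70 in KD, without overlap. That of HSPA8 to HSPA1B was 5.98 to 8.25 in DE and 7.86 to 11.7 in KD, with overlap, and that of HSPA8 to the sum of both genes, which depends less on how reads were split between them, was 2.30 to 2.71 in DE and 3.24 to 4.22 in KD, without overlap. HSPA8 was itself without overlap in TPM, so these ratios are not separate evidence. The strictly inducible HSPA6 and its copy HSPA7 were near the floor in all libraries, between 0 and 0.194 TPM for HSPA6, or at most 3 estimated reads.

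Other cytosolic HSP70 genes were lower in level and did not pass the test. HSPA14, a ribosome-associated member, measured 31.1, 33.5 and 23.3 TPM in the DE libraries against 36.3, 33.6 and 30.2 TPM in KD (log2 change 0.19, adjusted p = 0.686). HSPA2, known for its role in male germ cells, measured 16.9, 17.5 and 13.5 TPM in the DE libraries against 18.7, 20.6 and 16.7 TPM in KD (log2 change 0.22, adjusted p = 0.57). HSPA1L, beside HSPA1A on chromosome 6, stayed between 3.14 and 4.84 TPM, and the distant relatives HSPA12A and HSPA12B between 1.88 and 3.41 TPM.

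The HSP110 genes, whose products release ADP from HSP70, were led by HSPA4. HSPA4 measured 219.6, 246 and 183 TPM in the DE libraries against 253, 263 and 227 TPM in KD. Its log2 change of 0.21 passed neither fit (adjusted p = 0.56, 0.0762 with the block). HSPH1 was less abundant but did not overlap between the groups, at 35.6, 35.4 and 28.6 TPM in the DE libraries against 42.9, 42.5 and 40.4 TPM in KD. Its log2 change of 0.33 (SE 0.114) passed with the block (adjusted p = 0.0352, 0.205 without). HSPA4L stayed at 1.24 to 1.55 TPM.

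HSP90 genes were the most abundant of all members. HSP90AB1, the constitutive cytosolic form, measured 2352, 2543 and 2272 TPM in the DE libraries against 2789, 2907 and 2813 TPM in KD, and every KD value was above every DE value. Its log2 change was 0.25 (SE 0.0828, 95% interval 0.05 to 0.44), with an adjusted p of 0.196 that became 0.0277 with the block. HSP90AA1, the inducible cytosolic form, measured 864, 956 and 722 TPM in the DE libraries against 1027, 1059 and 934 TPM in KD (log2 change 0.25, adjusted p = 0.388, 0.0413 with the block, exact permutation p = 0.2), and DE replicate 2 lay above KD replicate 3. The TPM ratio of HSP90AB1 to HSP90AA1 was 2.84 ± 0.264 in DE and 2.82 ± 0.162 in KD (SD, n = 3 each), so the balance of both cytosolic forms differed by less than the spread between libraries. HSP90B1, the ER form, measured 965, 1056 and 743 TPM in the DE libraries against 996, 988 and 790.3 TPM in KD, with full overlap and a log2 change of 0.01 (95% interval -0.35 to 0.38). Of the HSP90 pseudogene rows left out, HSP90AA2P (13.6 TPM for DE, 17.9 TPM for KD) and HSP90AB3P (11.2 and 14.3 TPM) had means above 2 TPM. HSP90AB1 shared 13.8% of its 50-base stretches with HSP90AB3P, so reads may have been split between them.

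**Figure D2:**
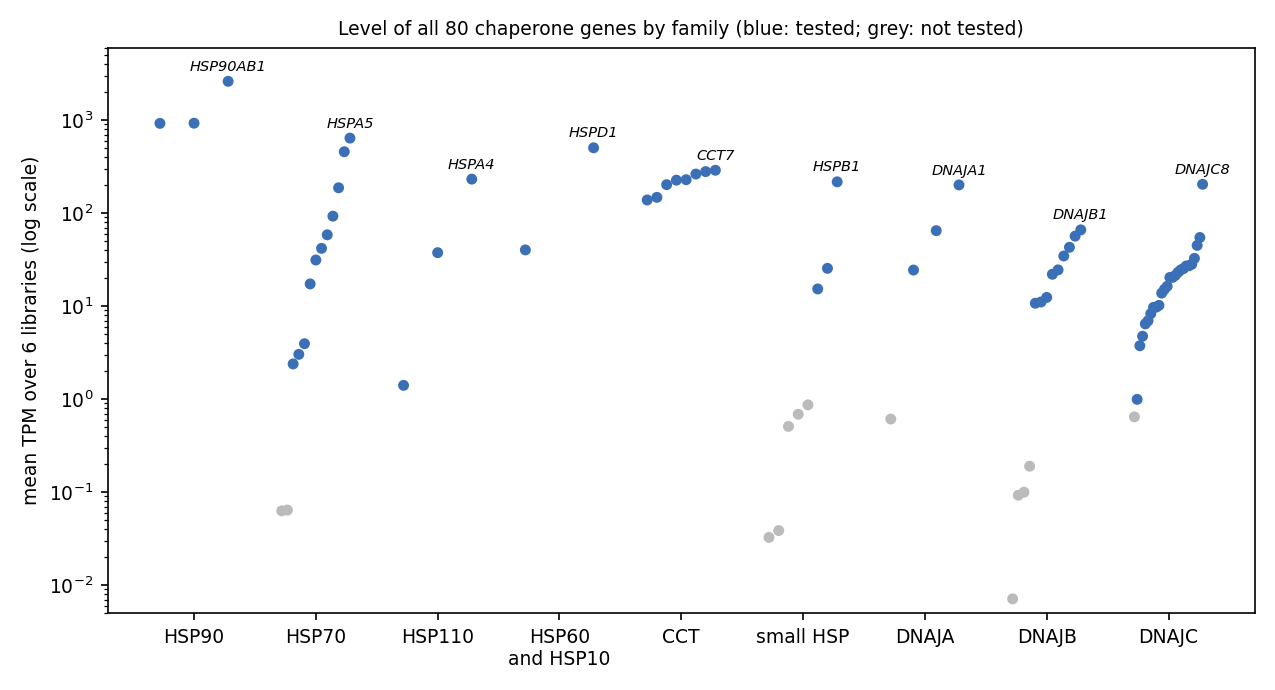
Mean TPM over the 6 libraries (log axis) of all 80 members by family, with the most abundant member of each family named; grey points were not tested. HSP90AB1 has the highest mean, at 2613 TPM, and the 8 CCT genes lie together between 138 and 289 TPM.

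Mitochondrial members held the largest fall and 3 of the 10 rises seen with the block. Of the 8 tested members whose products act in mitochondria, 1 fell (DNAJC15) and 0 rose in limma's fit without the block (unadjusted p under 0.05 for 2 higher and 1 lower), while 3 rose and 1 fell with it, against 5.88% and 6.62% of all genes. The groups did not overlap for 5 of the 8, with KD higher for 4 and lower for 1, against 10.1% and 10.7% of all genes. The median log2 change was 0.14, and 6 of 8 were higher in KD in all 3 same-numbered pairs, against 23.2% of all genes. The choice of pairs rests on replicate numbers that the labels do not explain.

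HSPD1 (HSP60, the mitochondrial chaperonin) measured 427, 469 and 395 TPM in the DE libraries against 579, 592 and 561 TPM in KD. The groups did not overlap, with means of 430.1 ± 37.2 TPM (DE) and 577 ± 15.7 TPM (KD; SD, n = 3 each). The log2 change was 0.43 (SE 0.0917, 95% interval 0.21 to 0.64), and the adjusted p of 0.0564 just missed the threshold, passing at 0.00666 with the block (exact permutation p = 0.1). Without mitochondrial DNA transcripts the adjusted p was 0.00732, and without replicate 3 of both groups it was 0.0342. Other annotated genes share 13.2% of its 50-base stretches, most of them the pseudogene HSPD1P1, which was read at 10.8 ± 3.59 TPM (DE) and 15.7 ± 2.07 TPM (KD; SD, n = 3 each).

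HSPE1 (HSP10, the lid of the HSP60 chamber) is transcribed from the other strand beside HSPD1 on chromosome 2. It measured 43.1, 37.8 and 24.5 TPM in the DE libraries against 50.96, 54.1 and 30.8 TPM in KD, and the third replicate was the lowest in each group. Each KD library was above its same-numbered DE library, but the groups overlapped (log2 change 0.35, SE 0.27, adjusted p = 0.673, 0.0321 with the block). The read-through gene HSPE1-MOB4, which shares 6.85% of the 50-base stretches of HSPE1, stayed at or under 1.1 TPM. The TPM ratio of HSPD1 to HSPE1 ranged from 9.89 to 16.1 in DE and from 10.96 to 18.2 in KD, with overlap.

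HSPA9 (mortalin), the mitochondrial HSP70 that pulls chains through the inner membrane, measured 161, 173 and 156 TPM in the DE libraries against 213, 209.6 and 212 TPM in KD. The KD libraries lay close together and above every DE library. The log2 change was 0.37 (SE 0.0821, 95% interval 0.18 to 0.57), with an adjusted p of 0.0601, and 0.0114 with the block. DNAJA3, the J-domain partner of HSPA9 in the matrix, measured 23.2, 24.3 and 21 TPM in the DE libraries against 27.2, 26.7 and 24.3 TPM in KD (log2 change 0.18, adjusted p = 0.505), and its lowest KD value lay just above its highest DE value.

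DNAJC15, an inner-membrane J protein of the import motor also known as the methylation-controlled J protein, was the member that fell. It measured 16.5, 18.7 and 17.4 TPM in the DE libraries against 10.9, 9.55 and 9.69 TPM in KD, from 496 to 967 estimated reads a library. All KD values were below all DE values, with means of 17.6 ± 1.11 TPM (DE) and 10.1 ± 0.765 TPM (KD; SD, n = 3 each). The log2 change was -0.75 (SE 0.111, 95% interval -1.01 to -0.49, limma adjusted p = 0.0173, 0.0068 with the block), the largest in size of the 67. The gene lies on chromosome 13, 43023203 to 43114224, and none of its 50-base stretches occur in another annotated gene. The adjusted p was 0.0855 when DE replicate 1 was left out, 0.0693 for DE replicate 2, 0.0597 for KD replicate 1, 0.116 for KD replicate 2 and 0.0601 for KD replicate 3, all above 0.05, while leaving out DE replicate 3 kept the call (0.03). The log2 change lay between -0.80 and -0.70 in these fits.

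Its paralog DNAJC19, another J protein of the inner membrane, measured 15.6, 15.6 and 16.4 TPM in the DE libraries against 16.7, 17.5 and 16.4 TPM in KD (log2 change 0.08, 95% interval -0.14 to 0.31, adjusted p = 0.827). The TPM ratio of DNAJC15 to DNAJC19 was 1.06 to 1.20 in DE and 0.546 to 0.656 in KD, so DNAJC15 had the higher TPM of the pair in each DE library and the lower in each KD library. DNAJC15 was itself without overlap in TPM, so the ratio is not separate evidence. DNAJC11, a J protein linked to the cristae-forming MICOS complex, measured 43.9, 44.4 and 41.97 TPM in the DE libraries against 44.4, 48.1 and 47 TPM in KD (adjusted p = 0.754), and DNAJC30, found at the ATP synthase, 8.55, 9.34 and 7.29 TPM in the DE libraries against 8.99, 8.84 and 6.82 TPM in KD (adjusted p = 0.979), both with overlap.

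**Figure D3:**
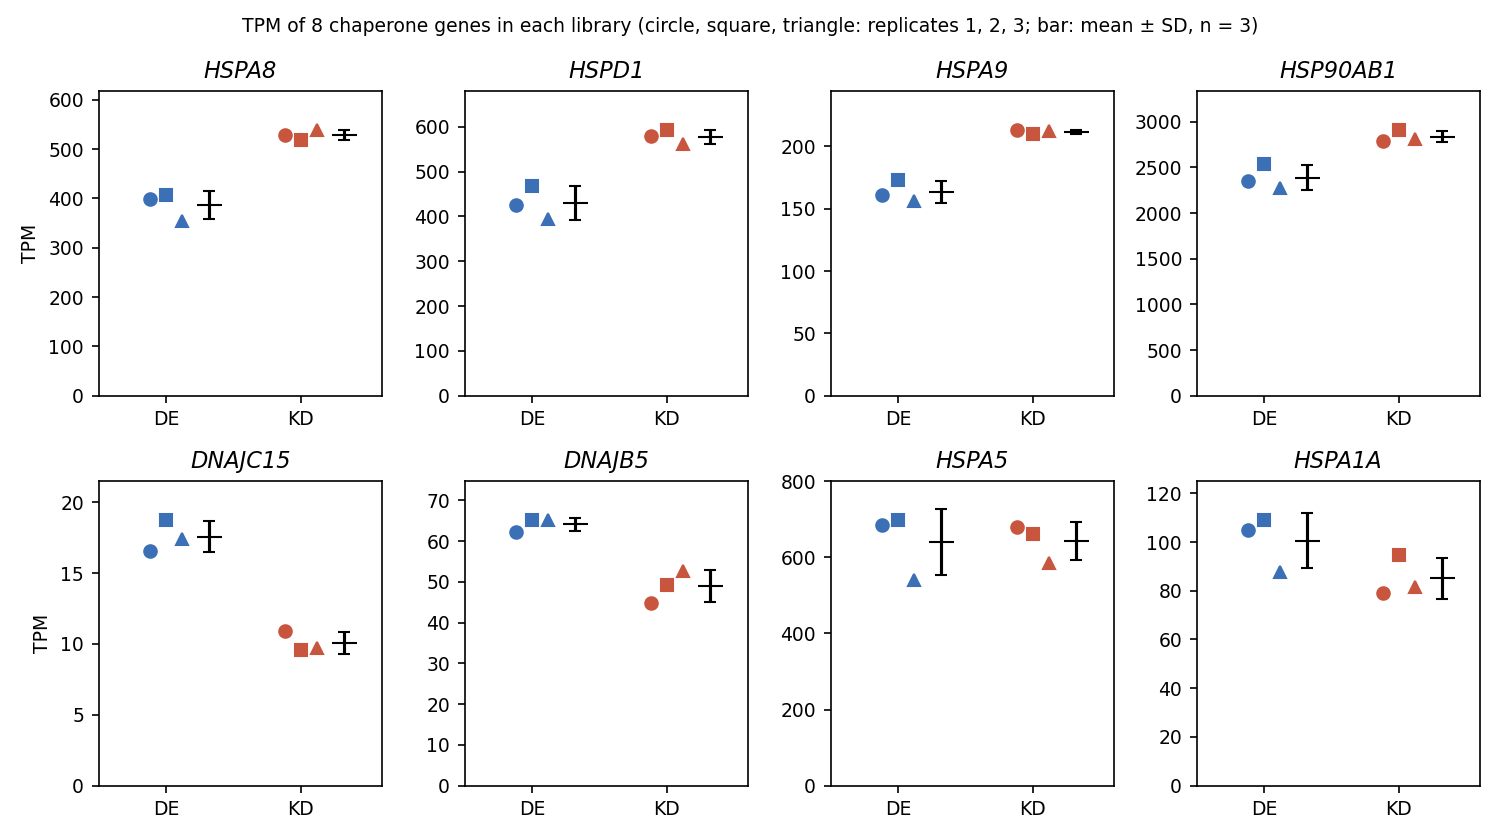
TPM of 8 members in each library (circles, squares and triangles are replicates 1, 2 and 3), with mean and SD, n = 3 each. HSPA8, HSPD1, HSPA9 and HSP90AB1 are higher in every KD library than in every DE library, DNAJC15 and DNAJB5 are lower, and the groups overlap for HSPA5 and HSPA1A.

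The 8 CCT genes encode the subunits of the cytosolic ring that folds actin and tubulin, and all 8 had a positive log2 change. None passed in limma's fit without the block (adjusted p 0.270 to 0.783), with 1 at an unadjusted p under 0.05. With the block 1 passed as higher, where 5.88% of all genes did. Each was higher in KD than in the same-numbered DE library in all 3 pairs, the pattern seen in 23.2% of all genes. The median log2 change was 0.16, with a range from 0.09 (CCT7) to 0.27 (CCT5), and all 8 stayed positive in each of the 15 alternatives, where the median lay between 0.06 and 0.26. Alternatives that changed only the filter, the block or the trend leave the log2 change as it is, so their sign was fixed in advance. Because the 8 were measured in the same 6 libraries, they do not count as 8 separate observations.

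CCT5, which passed with the block, measured 192, 197 and 161 TPM in the DE libraries against 217, 232 and 213 TPM in KD with no overlap (log2 change 0.27, SE 0.104, adjusted p = 0.27, 0.0402 with the block). TCP1 (CCT1) measured 145, 156 and 112 TPM in the DE libraries against 168, 170.4 and 135 TPM in KD (log2 change 0.20, adjusted p = 0.665, 0.0623 with the block). CCT7, the most abundant on average, measured 279, 302 and 259 TPM in the DE libraries against 294, 305 and 295 TPM in KD (log2 change 0.09, adjusted p = 0.768). The third replicate was the lowest library of its group for all 8 genes in DE and for 7 in KD, CCT7 being the exception. The remaining log2 changes were 0.14 (CCT2), 0.15 (CCT3), 0.17 (CCT4), 0.16 (CCT6A) and 0.18 (CCT8). Although the ring holds each subunit once, transcript levels differed, and the highest CCT gene was 2.02 to 2.36 times the lowest within a library. CCT2 was the lowest in all 6 libraries, and CCT4 or CCT7 the highest.

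**Figure D4:**
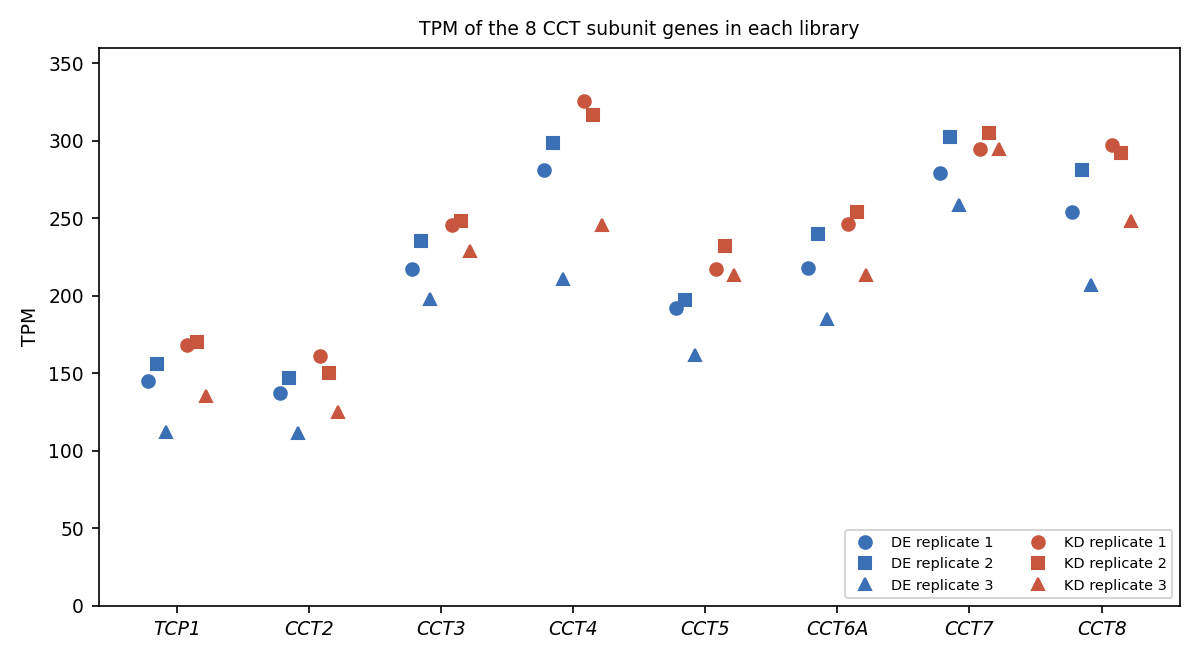
TPM of the 8 CCT subunit genes in each of the 3 DE (blue) and 3 KD (red) libraries. Each KD point lies above the DE point of the same number, by a log2 change between 0.09 (CCT7) and 0.27 (CCT5) on average, and the groups overlap for 7 of the 8 genes.

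The ER members, led in level by HSP90B1 and HSPA5, showed no common direction. Of 13 tested, 0 passed limma's fit without or with the block (adjusted p without it 0.323 to 0.996), and 1 had an unadjusted p under 0.05. In all 3 same-numbered pairs, 0 were higher and 1 was lower, against 23.2% and 25.7% of all genes. Log2 changes ran from -0.26 to 0.05 with a median of 0.00. Without DE replicate 3, 0 of 13 were positive, and 11 were without DE replicate 2, so their sign followed the libraries used. The ER median was -0.13 and 0.08 in these fits, and that of all genes tested -0.10 and 0.06.

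HSPA5 (BiP, the ER HSP70 and sensor of the unfolded protein response) measured 684, 697 and 539 TPM in the DE libraries against 678, 661 and 585 TPM in KD. The groups overlapped and the log2 change was 0.01 (95% interval -0.28 to 0.30, exact permutation p = 1). Within a library the TPM ratio of HSPD1 to HSPA5 was 0.624 to 0.732 in DE and 0.853 to 0.959 in KD, that of HSPA8 to HSPA5 0.582 to 0.655 and 0.78 to 0.92, and that of HSPA9 to HSPA5 0.235 to 0.289 and 0.314 to 0.363. These ratios do not depend on the mitochondrial share of a library, and none overlapped between the groups. They were chosen after the values were seen. HSPD1, HSPA8 and HSPA9 were each without overlap in TPM and HSPA5 was nearly level, so the ratios are not separate evidence.

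DNAJB11, a lumenal J partner of BiP, measured 43.1, 45.9 and 38.4 TPM in the DE libraries against 46.8, 43.3 and 39.9 TPM in KD (log2 change 0.03, adjusted p = 0.968). DNAJC3 (p58IPK), which also restrains the kinase PERK, measured 29.5, 32.4 and 18.4 TPM in the DE libraries against 30.7, 30.2 and 21 TPM in KD (log2 change 0.05, adjusted p = 0.979). DNAJB9 (ERdj4), a target of the stress factor XBP1, measured 12.3, 14.1 and 10.04 TPM in the DE libraries against 15.2, 12.9 and 9.99 TPM in KD (log2 change 0.05, adjusted p = 0.966), and HSPA13 46.96, 53.2 and 27.8 TPM in the DE libraries against 49.2, 42.8 and 31.1 TPM in KD (log2 change -0.03, adjusted p = 0.989). DNAJC1, a membrane J protein, had the lowest log2 change of the ER members (-0.26, adjusted p = 0.323). It measured 20.4, 24.04 and 22.3 TPM in the DE libraries against 19.9, 17.6 and 17.9 TPM in KD, with no overlap. DNAJB12, DNAJB14, DNAJC10, DNAJC14, DNAJC16 and DNAJC18 overlapped between the groups.

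**Figure D5:**
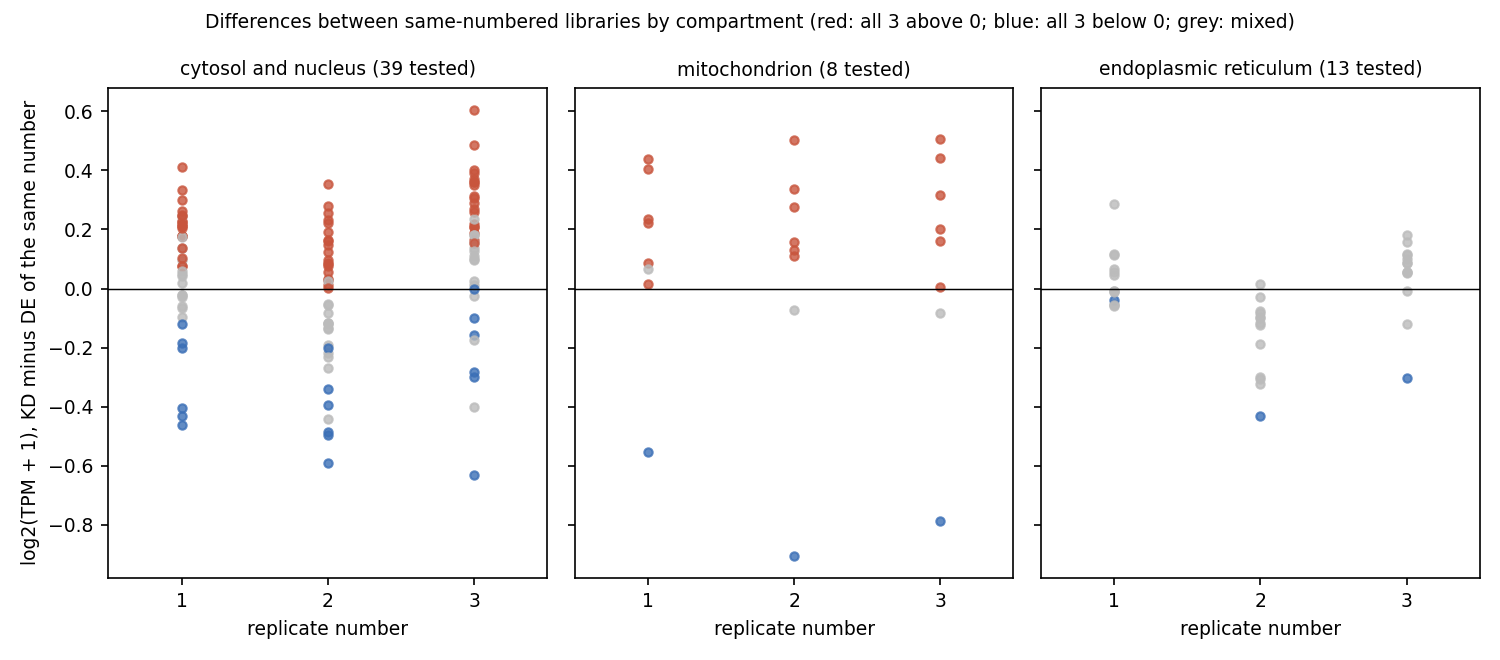
Difference in log2(TPM + 1) between the KD and the DE library of the same replicate number for members of the cytosol and nucleus (39 tested), mitochondrion (8) and ER (13); each point is 1 gene. All 3 differences were above 0 for 19, 6 and 0 members, and below 0 for 6, 1 and 1. Over all genes tested the shares were 23.2% above and 25.7% below.

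J proteins of the cytosol and nucleus choose the clients of HSP70. Among DNAJA genes, DNAJA1 measured 209.9, 213 and 181 TPM in the DE libraries against 207, 196 and 199.5 TPM in KD (log2 change -0.001, 95% interval -0.22 to 0.22). DNAJA2 measured 61.95, 64.7 and 49.5 TPM in the DE libraries against 76.5, 72.4 and 63.9 TPM in KD (log2 change 0.27, adjusted p = 0.398, 0.0422 with the block), with overlap. It also passed without a block once mitochondrial DNA transcripts were removed (adjusted p = 0.0301).

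Among DNAJB genes 9 of 13 were tested, and 1 rose and 1 fell with the block, where 5.88% and 6.62% of all genes did. Without it, none passed in limma's fit, and 1 had an unadjusted p under 0.05. DNAJB6, which keeps polyglutamine proteins from aggregating, measured 32.9, 33.8 and 24.9 TPM in the DE libraries against 41.7, 41.2 and 33.04 TPM in KD (log2 change 0.34, adjusted p = 0.37, 0.0214 with the block). DNAJB5 measured 62.4, 65.1 and 65.1 TPM in the DE libraries against 44.9, 49.3 and 52.8 TPM in KD, and every KD library was below every DE library. Its log2 change of -0.39 (SE 0.0958, 95% interval -0.61 to -0.16) had an adjusted p of 0.0869, and 0.0137 with the block. DNAJB1 (HSP40), the classical heat-inducible partner of HSP70, measured 67.3, 71.9 and 55.1 TPM in the DE libraries against 72.02, 67.8 and 62.7 TPM in KD (log2 change 0.07, adjusted p = 0.913). DNAJB2 measured 27.2, 29.7 and 23.9 TPM in the DE libraries against 23.8, 23.3 and 19.4 TPM in KD and did not overlap (log2 change -0.27, adjusted p = 0.394, 0.0541 with the block), although it passed without mitochondrial DNA transcripts.

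DNAJC is the mixed class, whose proteins share little beyond the J domain, and 25 of its 26 members were tested. Apart from DNAJC15 none passed in either fit, and 11 of 25 changes were positive. The most abundant, the splicing-associated DNAJC8, measured 199.5, 209 and 213 TPM in the DE libraries against 196, 193 and 215 TPM in KD (log2 change -0.04). DNAJC5, the synaptic-vesicle protein CSPα, measured 57.9, 59.6 and 42.02 TPM in the DE libraries against 61.1, 60.9 and 46.8 TPM in KD (log2 change 0.09). DNAJC2, part of the ribosome-bound complex that receives new chains, measured 21.98, 21.9 and 20.3 TPM in the DE libraries against 23.7, 24.7 and 26.2 TPM in KD with no overlap (log2 change 0.21, adjusted p = 0.387), and DNAJC6, the auxilin of clathrin uncoating, 10.95, 12.4 and 9.13 TPM in the DE libraries against 9.998, 7.9 and 8.08 TPM in KD (log2 change -0.29, adjusted p = 0.452).

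Small heat shock proteins hold unfolding proteins without ATP, and the 3 tested genes all had a negative change. HSPB1 (HSP27), which also binds actin filaments, measured 214, 276 and 220.0 TPM in the DE libraries against 223, 203 and 166 TPM in KD (log2 change -0.26, 95% interval -0.60 to 0.08, exact permutation p = 0.3), with overlap. HSPB8, which works with BAG3 in chaperone-assisted autophagy, measured 21.7, 17.97 and 14.6 TPM in the DE libraries against 15.9, 12.6 and 9.09 TPM in KD, lower in each same-numbered pair (log2 change -0.52, adjusted p = 0.322, 0.0122 with the block). HSPB11, a ciliary transport subunit, measured 26.8, 29.5 and 23.4 TPM in the DE libraries against 27.6, 24.96 and 20.7 TPM in KD (adjusted p = 0.833).

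The 13 members that were not tested had means under 1 TPM. They were HSPA6, HSPA7, HSPB2, HSPB3, HSPB6, HSPB7, HSPB9, DNAJA4, DNAJB3, DNAJB7, DNAJB8, DNAJB13 and DNAJC12. HSPB7 had the highest mean of them, with 0.962 TPM for DE and 0.775 TPM for KD, and DNAJB8 the lowest. HSPA7 and DNAJB3 match the symbols of genes but are typed as pseudogenes in GENCODE 29. DNAJC22 was the least abundant tested member, at 0.995 TPM.

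Among abundant members the changes were mostly positive. Of 19 members with a mean of at least 100 TPM, 16 had a positive log2 change, 5 were higher in KD with no overlap, and the median was 0.17. Of the 1289 genes at that level outside mitochondrial DNA, 53.6% were positive, 11.4% did not overlap with KD higher, and the median was 0.01. The 16 include the 8 CCT genes, which do not count as separate observations. At a mean of at least 20 TPM, 31 of 46 members were positive (median 0.08), against 51.8% of genes at that level outside mitochondrial DNA. At 5 TPM, 37 of 60 were (median 0.05), against 50.5% of such genes. All 80 members together took 1.35%, 1.38% and 1.36% of the TPM outside mitochondrial DNA in DE, and 1.52%, 1.55% and 1.57% in KD, without overlap. HSP90AB1 has the largest weight in this sum.

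Other genes of the folding machinery were read from a list of 64 co-chaperones and regulators, chosen for function: heat shock factors, BAG proteins, HSP90 partners, prefoldins, mitochondrial proteases and the unfolded protein response. Of the 61 tested, 0 rose and 0 fell in limma's fit without the block, where 1 of each had an unadjusted p under 0.05, and 2 rose and 1 fell with it, against 5.88% and 6.62% of all genes. The median log2 change was 0.05, with 37 positive. The 3 KD values lay above the 3 DE values for 4 of the 61 and below them for 1, against 10.1% and 10.7% of all genes. NUDCD1, linked to HSP90, measured 47.2, 52.8 and 38.6 TPM in the DE libraries against 65.6, 69.6 and 54.4 TPM in KD with no overlap (log2 change 0.45, adjusted p = 0.192, 0.00692 with the block). AHSA1, which speeds the HSP90 ATPase, measured 60.9, 68.7 and 53.4 TPM in the DE libraries against 73.2, 80.6 and 66.9 TPM in KD (log2 change 0.27, adjusted p = 0.374, 0.0296 with the block). FKBP4, an HSP90 immunophilin, measured 93.3, 100.4 and 84.7 TPM in the DE libraries against 104, 111 and 107 TPM in KD with no overlap (log2 change 0.21, adjusted p = 0.36).

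STUB1 (CHIP), the ubiquitin ligase that sends HSP70 clients to degradation, measured 46.8, 47.2 and 33.2 TPM in the DE libraries against 35.7, 37.9 and 27.9 TPM in KD and fell with the block (log2 change -0.31, adjusted p = 0.506, 0.0283 with the block). HSF2 measured 36.3, 43.8 and 28.2 TPM in the DE libraries against 29.3, 26.4 and 24.6 TPM in KD (log2 change -0.40, adjusted p = 0.312). HSF1, the heat shock factor itself, measured 55.4, 51.8 and 53.1 TPM in the DE libraries against 53.04, 54.2 and 49.6 TPM in KD, so its transcript differed by less than the spread between libraries (log2 change -0.03, adjusted p = 0.952). ATF4 and DDIT3, stress response factors, had adjusted p of 0.805 and 0.942. STUB1 and HSF1 were named after their values were seen, as were ATF4 and DDIT3.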

How the data were processed

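Total RNA of 6 HuES8 endoderm libraries, 3 DE and 3 KD by their titles, was sequenced. The authors deposited TPM for 58830 rows, and each column sums to 1000000. Tools named in the submitters' processing notes, with no role, are HISAT2 2.1.0, featureCounts and DESeq2, with GRCh38 as the build. Annotation, strand setting and filters were not given in the sources used here. Since TPM are shares of a library's total, a larger mitochondrial share lowers every other value. Depth was estimated from steps between low TPM values (within 0.02 of whole reads for 88.2% to 89.0% of them). Reads of overlapping, antisense or near-identical genes could not be told apart.

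Rows with at least 1 TPM in at least 3 libraries (17711) were tested as log2(TPM + 1), which understates the change of low genes. limma 3.58.1 in R 4.3.3 used group alone, eBayes with trend and Benjamini-Hochberg adjustment over all genes (threshold 0.05, 2-sided). All adjusted p-values are limma's. HSPA1A, HSPA1B, HSPA5, HSPD1, HSP90AA1, HSPB1 and GATA6-AS1 also had an exact permutation test. A scan of 50-base stretches of GENCODE 29 exons gave shared sequence. Compartments were assigned by hand from general knowledge of each product. Members, families and lists were chosen with earlier results of these data known. The naming rule took members past the threshold, a fixed list of well-known members, the 2 most abundant of each family, the 5 largest changes each way above 5 TPM, up to 10 members that passed in the fit with the block but not in the one without, and the 4 co-chaperones with the smallest p. Members named beyond it, and the TPM ratios and promoter motifs, were chosen after their values were seen.

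Replicate numbers were checked as pairs: after removal of group means, the correlation over genes of same-numbered libraries was 0.108, 0.144 and 0.347, each above the 0.1 required. DE replicate 2 with KD replicate 1, which do not match, gave 0.121. The pairing comes from this check and from no label. The 15 alternatives changed the pseudocount (0.1), the filter, the scaling, the block, the trend and the libraries used. The fit without the block was tested on simulated data for 11763 genes, those with a mean of at least 5 TPM. Noise was drawn independently for each gene and library, so no shift shared across genes, such as that of the third replicates, was simulated. In this setting the fit recovered 11.94% of log2 changes of 0.5, 53.73% of 1 and 92.42% of 2, with 4 false calls. A member that did not pass may therefore still have changed by a small amount. Work outside limma used Python 3.11.15, numpy 2.4.6 and pandas 2.3.3.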

Additional observations from a re-analysis of the deposited data

How the results depend on the processing

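The 3 replicates a group limit the precision, and TPM without counts allow no counting interval. No result changed direction among those with a call. Members called higher and lower numbered 0 and 1 with no filter, 0 and 1 without the trend, 7 and 2 with median-ratio scaling, 7 and 2 with quantile normalization, 8 and 2 without mitochondrial transcripts, 10 and 3 with the replicate block, and 3 and 2 without replicate 3 of both groups. Leaving out 1 library gave 0 to 1 higher and 0 to 1 lower; the cause of these differences was not tested. Over all genes the counts were 132 and 107 with no filter, 882 and 867 with median-ratio scaling, 860 and 875 with quantile normalization, 874 and 808 without mitochondrial transcripts, 1042 and 1173 with the block, 507 and 705 without replicate 3 of both groups, and 61 to 248 and 24 to 362 leaving out 1 library. Co-chaperones called higher and lower were 2 and 1 with median-ratio scaling, 2 and 1 with quantile normalization, 2 and 0 without mitochondrial transcripts, 2 and 1 with the block, and 1 and 1 without replicate 3 of both groups. GATA6-AS1 missed the threshold without DE replicate 1 (-1.22, adjusted p = 0.0717) and KD replicate 2 (-1.30, adjusted p = 0.0612), over a range of -1.38 to -1.11. The members' median log2 change ranged from -0.06 to 0.12 when 1 library was left out, and was -0.001 without replicate 3 of both groups. Over all genes tested the median ranged from -0.10 to 0.06, and was -0.04 without replicate 3 of both groups. For the 67 tested members and 8 co-chaperones and regulators, 986 values in alternatives kept sign and side of the threshold, 49 passed newly (16 genes) and 12 no longer passed (HSPA8 and DNAJC15). In 70 more, over 29 genes, a change that did not pass kept that side but had the other sign. Alternatives that changed only the filter, the block or the trend leave the log2 change as it is, so they could not alter a sign.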
